A study of Mus musculus with 9 samples.

Results

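The regulators of G protein signaling (RGS) are described here through 9 genes, Rgs1, Rgs2, Rgs3, Rgs10, Rgs12, Rgs14, Rgs16, Rgs18 and Rgs19. They were taken by symbol from a table of 54532 mouse genes, and all 9 were among the 12746 genes with enough signal to be tested. RNA was sequenced in bulk from splenic dendritic cells (DCs) of 3 kinds, with 3 samples of each. N-mDCs were mature conventional DCs of healthy mice, T-mDCs were mature conventional DCs of mice with T cell acute lymphoblastic leukemia (T-ALL), and T-DCs were sorted from leukemic spleens as CD11c+ with little MHCII on the surface. The leukemia came from C57BL/6J bone marrow cells that carried a retrovirus for the intracellular domain of Notch1 and GFP. GFP+ leukemia cells were given to C57BL/6J or C57B6.SJL recipients that had not been irradiated, and DCs were taken on day 15. The study used female mice 6 to 8 weeks old. The labels do not say whether a sample came from 1 mouse or from pooled mice, so the p-values below measure the spread between samples, which may be technical.

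RGS proteins shorten signals from G protein-coupled receptors. A receptor that binds its ligand loads a Gα subunit with GTP, and the RGS domain speeds up the hydrolysis of that GTP, which lets Gα and Gβγ reassemble. In leukocytes many of these receptors sense chemoattractants, and RGS proteins are known to limit how strongly and how long a cell responds to them. Rgs1, Rgs2, Rgs3, Rgs16 and Rgs18 belong to the R4 subfamily, most of which are small proteins built around the RGS domain. Rgs10, Rgs12 and Rgs14 belong to the R12 subfamily, and Rgs19 to the RZ subfamily, whose members carry a string of cysteines.

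T-DCs expressed lower levels of Rgs1, Rgs2 and Rgs18 than N-mDCs, and lower levels of Rgs1, Rgs10 and Rgs18 than T-mDCs. Mean FPKM (reads per kilobase of gene, scaled to the size of the library) of Rgs1 was 291.9 ± 19.7 in N-mDCs, 63.3 ± 48.2 in T-DCs and 298 ± 105 in T-mDCs (mean ± SD, n = 3 samples each, as in all means below). No RGS gene differed between T-mDCs and N-mDCs by the same test. Against N-mDCs, 3 of the 9 genes were called lower and 0 higher, where 10.3% of all 12746 tested genes were called lower. Against T-mDCs, 3 of the 9 genes were called lower and 0 higher, where 8.79% of all tested genes were called lower. A gene was called when its adjusted p was under 0.05 in limma on log2(FPKM + 1), fitted over all 9 samples and adjusted over all tested genes. Differences below are on this log2 scale, which understates the change of genes at low FPKM. Both comparisons use the same T-DC samples and are not independent of each other. RNA from sorted bulk samples cannot tell fewer cells that express a gene from less RNA of it per cell.

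**Figure D1:**
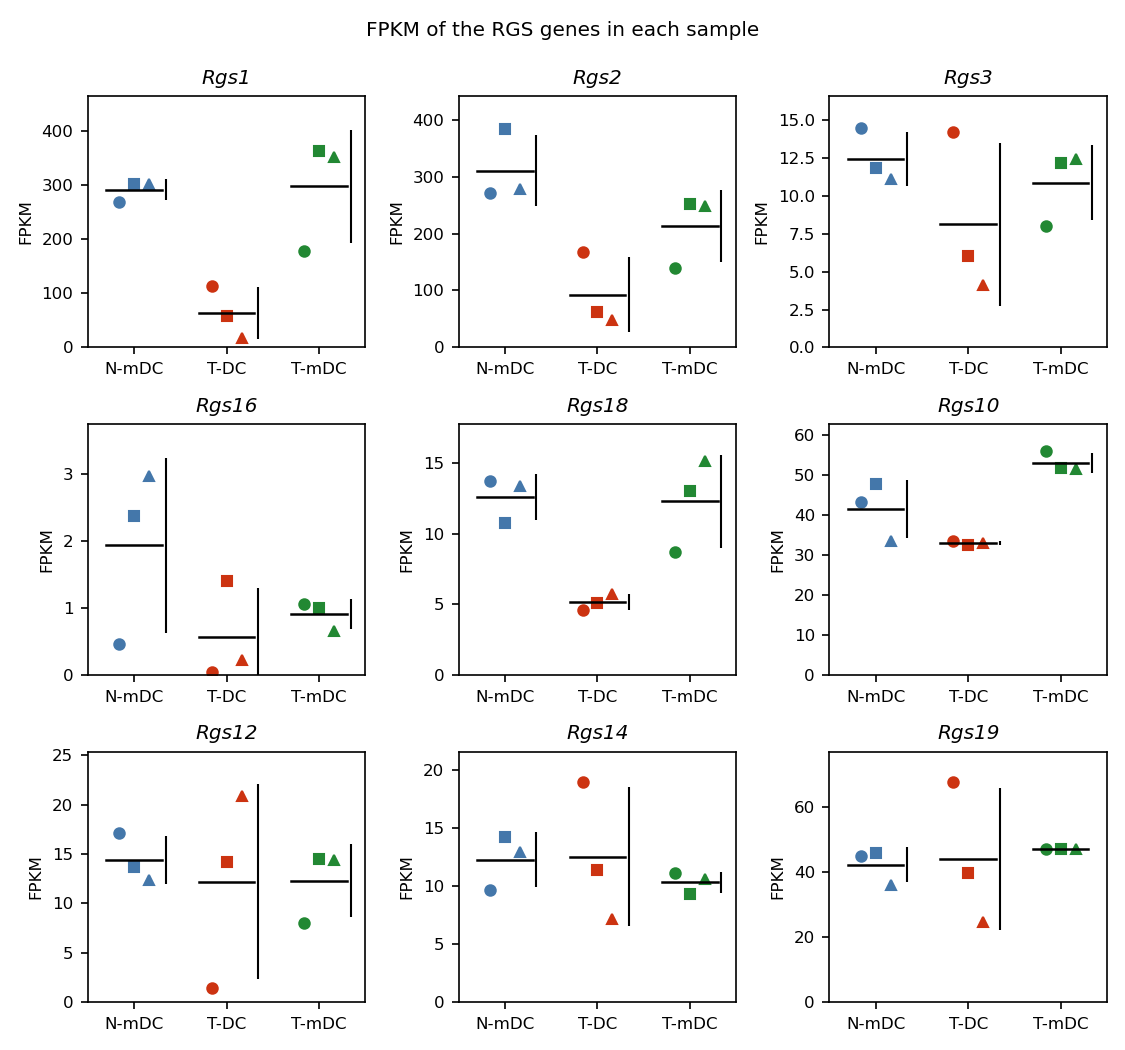
FPKM (linear axis from 0) of each RGS gene in the 9 samples, by group, with circles for sample 1, squares for sample 2 and triangles for sample 3. Horizontal bars are group means and vertical bars the SD over 3 samples, cut at 0. All T-DC samples lie below all other samples for Rgs1, Rgs18 and Rgs10, whereas the T-DC samples of Rgs12, Rgs14 and Rgs19 lie on both sides of the mature DCs.

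Several libraries stood apart. Reads on genes ranged from 15360815 to 18440913 per sample. Hemoglobin genes took 3.82% of reads in T-DC sample 2 and 3.0% in T-DC sample 3, but 0.0422% in T-DC sample 1 and at most 0.405% in any mature DC sample. T-DC sample 1 correlated with T-DC samples 2 and 3 at 0.836 and 0.808 over tested genes, and the latter correlated with each other at 0.961. T-mDC samples 2 and 3 were the most alike pair within a group, with a chi-square per gene of 1.85 where the other pairs gave 8.11 to 36.1. Over genes with at least 2000 reads it was 5.45, above counting noise, where the other pairs gave 189 to 2352. The labels do not say whether these 2 came from separate mice, and they were kept as separate samples. With their mean as 1 sample, limma called 0 of the 9 RGS genes against T-mDCs, with 3 at an unadjusted p under 0.05, beside 4.24% of all tested genes called. Of 16 markers of conventional DCs, T-DCs expressed 13 at called lower levels than N-mDCs and 13 at called lower levels than T-mDCs, with a summed FPKM of 847 to 3310 in T-DCs, 22000 to 31000 in N-mDCs and 14300 to 20400 in T-mDCs. None of the 16 was at 0 in a T-DC sample, and T-DCs were sorted for low MHCII, which H2-Aa, H2-Ab1 and H2-Eb1 of this list encode. These 3 genes and Cd74, the invariant chain of MHCII, made up most of the sum, which therefore says little about the other markers. Of those, Itgax had 43 to 152 FPKM in T-DCs, 158 to 230 in N-mDCs and 159 to 167 in T-mDCs. Sirpa had 100 to 404, 195 to 244 and 124 to 230, and neither was called. Flt3, at 4.48 to 15.4, 44.4 to 78.8 and 62.9 to 89.1, was called lower in both comparisons. Of 12 erythroid markers, 4 were called higher in T-DCs than in N-mDCs and 12 higher than in T-mDCs, and their summed FPKM was 625, 58900 and 43400 in T-DC samples 1 to 3 against at most 5380 in a mature DC sample. With the mean level of erythroid genes as a covariate in the same fit, limma called 0 of the 9 RGS genes against N-mDCs and 0 against T-mDCs, with 4 at an unadjusted p under 0.05 in each. Of all tested genes it called 4.53% and 0%, with 23.3% and 13.5% at an unadjusted p under 0.05. In that fit Rgs18 differed by -1.04 and -0.92 (limma adjusted p = 0.0874 and 0.343), Rgs1 by -1.51 and -0.94 (0.202 and 0.63), Rgs2 by -1.12 against N-mDCs (0.215) and Rgs10 by -0.76 against T-mDCs (0.324). The covariate is highest in T-DC samples 2 and 3 and cannot be fully told apart from the group, although the erythroid sum of T-DC sample 1 lay within the range of N-mDCs (105 to 5380). With T-DC samples 2 and 3 both left out, a fit chosen after the data were seen in which the lone T-DC sample is taken to vary like the mature DCs, 1 RGS gene (Rgs12, lower in T-DCs) was called in each comparison, beside 5.85% and 5.81% of all tested genes. In that fit Rgs1 differed by -1.35 and -1.31 (limma adjusted p = 0.104 and 0.0999), Rgs18 by -1.28 and -1.22 (0.0625 and 0.0654), Rgs2 by -0.86 against N-mDCs (0.228) and Rgs10 by -0.65 against T-mDCs (0.13). T-mDC sample 1 was the lowest T-mDC sample for Rgs1, Rgs2, Rgs3, Rgs12 and Rgs18.

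Rgs1, a short R4 protein that acts on Gαi and Gαq and restrains chemokine responses of lymphocytes, was among the most abundant of the 9 in mature DCs. Here and below, values are listed from sample 1 to sample 3 of a group. N-mDCs had an FPKM of 269, 304 and 303, and T-mDCs 178, 365 and 353. T-DCs had 114, 58.2 and 18.0. Every T-DC sample was below every mature DC sample, and the T-DC samples differed among themselves by 6.34 times. The mean was 4.61 times higher in N-mDCs than in T-DCs (T-DC minus N-mDC -2.53 ± 0.58, SE, limma adjusted p = 0.0223). Against T-mDCs the mean differed 4.71 times (-2.50 ± 0.58, limma adjusted p = 0.0256). With T-DC sample 1 left out the differences were -3.13 and -3.09 (limma adjusted p = 0.0018 and 0.00221), and with T-DC sample 3 left out -1.83 and -1.79 (0.0294 and 0.0344). The call against N-mDCs was lost when any N-mDC sample or T-DC sample 2 was left out, at limma adjusted p of 0.0589 to 0.0699. The call against T-mDCs was lost without T-DC sample 2, T-mDC sample 2 or T-mDC sample 3, at limma adjusted p of 0.0675, 0.107 and 0.106.

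Rgs2 acts mainly on Gαq and is induced quickly by many stimuli. N-mDCs had an FPKM of 270.5, 383 and 278, T-DCs 168, 62.9 and 47.4, and T-mDCs 139, 252 and 248. All T-DC samples were below all N-mDC samples, but T-DC sample 1 was above T-mDC sample 1, so these groups overlapped. The mean was 3.34 times higher in N-mDCs than in T-DCs (-1.93 ± 0.46, limma adjusted p = 0.0242). Against T-mDCs the difference of -1.36 ± 0.46 did not pass (95% interval -2.40 to -0.32, limma adjusted p = 0.0813). Leaving out T-DC sample 1 turned this into a call (-1.90, limma adjusted p = 0.00257). The call against N-mDCs was lost without any 1 of the N-mDC samples, T-DC sample 2 or T-DC sample 3, at limma adjusted p of 0.0639 to 0.085.

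The sequence before Rgs2 is shown because Rgs2 was the only called gene among Rgs1, Rgs2 and Rgs18 with an entry in the RefSeq promoter table used (build GRCm38.p6), in which 6 of the 9 genes have entries. It covers the 238 bases before the annotated start of Rgs2, at chr1:144004162-144004399 on the minus strand, 5′ to 3′. Capitals mark matches, on either strand, to the 3 motifs found there. These were the GC box, spelled GGGCGG, the core of the CAAT box, spelled CCAAT, and the short form of the cAMP response element, spelled TGACG.
Rgs2: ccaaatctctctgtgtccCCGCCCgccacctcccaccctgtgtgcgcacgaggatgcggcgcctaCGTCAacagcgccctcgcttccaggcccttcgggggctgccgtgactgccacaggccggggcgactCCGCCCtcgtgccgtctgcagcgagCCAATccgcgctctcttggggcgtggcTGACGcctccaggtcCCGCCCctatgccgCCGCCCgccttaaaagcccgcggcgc
The stretch holds 4 matches to the GC box, 2 to TGACG and 1 to CCAAT, and the TGACG matches begin 173 and 55 bases before the start. Over the 250 bases before all 32851 starts in the table, GGGCGG was found in 32.7%, TGACG in 17.8% and CCAAT in 33.8%. The TATA box (TATAAA), the AP-1 motif (TGANTCA) and the NF-kB motif were searched too and had no match in this stretch. A match describes the letters only.

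Rgs18 is an R4 protein best known from megakaryocytes and platelets, where it limits signals through Gαi and Gαq. N-mDCs had an FPKM of 13.7, 10.7 and 13.4, and T-mDCs 8.71, 13.0 and 15.2. T-DCs had 4.59, 5.12 and 5.71, a spread of 1.24 times, although these same samples spread by 6.34 times for Rgs1. All T-DC samples were below all others. The mean was 2.45 times higher in N-mDCs (-1.15 ± 0.22, limma adjusted p = 0.0105) and 2.40 times higher in T-mDCs (-1.09 ± 0.22, limma adjusted p = 0.0142). Against N-mDCs, Rgs18 passed under 22 of the 24 alternative settings, including each of the 9 fits without 1 sample, but not with the erythroid covariate or without T-DC samples 2 and 3 together. Against T-mDCs it was lost without T-DC sample 2, T-mDC sample 2 or T-mDC sample 3, at limma adjusted p of 0.0516, 0.0774 and 0.0756. Of 12 megakaryocyte and platelet markers, 6 were tested, with 0 called against N-mDCs and 2 (Itgb3 and Vwf) called higher in T-DCs than in T-mDCs. The summed FPKM of the 12 was 30.1 to 36.3 in T-DCs, 7.54 to 28.3 in N-mDCs and 8.07 to 9.01 in T-mDCs, and Gp1bb was listed at 0 in every sample. Itgb3 alone had 8.65 to 25.3 FPKM in T-DCs, 4.37 to 5.57 in N-mDCs and 2.52 to 5.59 in T-mDCs. Pf4 had 0.31 to 7.34 in T-DCs and 0.0887 to 9.48 in N-mDCs, and Ppbp 0.155 to 3.34 and 0.177 to 6.2, so these overlapped. The part of megakaryocytes and platelets in the Rgs18 values was not tested.

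Rgs3 and Rgs16, the other R4 genes, did not pass the test in any comparison. Rgs3, a larger protein that acts on Gαi and Gαq, had an FPKM of 14.5, 11.8 and 11.1 in N-mDCs, 14.2, 6.04 and 4.10 in T-DCs, and 8.04, 12.2 and 12.4 in T-mDCs. T-DC sample 1 was as high as N-mDCs, and the other T-DC samples were below all mature DC samples. The difference from N-mDCs was -0.71 (95% interval -1.56 to 0.14, limma adjusted p = 0.206), and without T-DC sample 1 Rgs3 was called lower in T-DCs in both comparisons (-1.16 and -0.96, limma adjusted p = 0.00618 and 0.0157). Rgs16, an inducible protein that acts on Gαi and Gαq, was the least abundant, with 0.465, 2.36 and 2.97 FPKM in N-mDCs, 0.0477, 1.41 and 0.225 in T-DCs and 1.064, 0.995 and 0.651 in T-mDCs. These values rest on 2 to 126 reads per sample, and T-DC sample 1, with 2 reads, is at a depth that cannot place its level. The 3 genes most alike to Rgs16 over the 9 samples were Igkv14-130, Cd6 and Trac (r of 0.948 to 0.957), which are genes of B and T cells. Of 12 T cell markers 9 were tested, with 3 called lower in the T-DC samples against N-mDCs and 1 against T-mDCs. These were Cd4, Cd8a and Cd8b1 (Cd8a against T-mDCs), and Cd4 and Cd8a are also expressed by subsets of conventional DCs. Cd3d, which is particular to T cells, ranged in FPKM from 0.215 to 5.94 among T-DCs, 0.525 to 0.798 among T-mDCs and 0.705 to 4.38 among N-mDCs. Trac ranged in the same order from 0.239 to 2.48, 0.775 to 1.81 and 1.03 to 6.6, so both overlapped between groups. Ptcra and Rag1 of the same list were too low to be tested. Ptcra ranged in this order from 0.359 to 1.86, 0.0848 to 0.289 and 0 to 0.215, with all T-DC samples above all mature DC samples. Rag1 ranged from 0.0338 to 0.518, 0.0157 to 0.0411 and 0 to 0.0194, so T-DCs were above N-mDCs but overlapped T-mDCs. Of 10 B cell and plasma cell markers 9 were tested, with 4 and 2 called lower, and a summed FPKM ranging from 521 to 4240 among T-DCs, 366 to 2050 among T-mDCs and 883 to 4270 among N-mDCs. The part of such cells in the Rgs16 values was not tested.

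Rgs10, a small R12 protein that acts on Gαi and is known from microglia and macrophages, was the most even of the genes among T-DCs. T-DCs had an FPKM of 33.5, 32.6 and 33.1, N-mDCs 43.2, 47.8 and 33.7, and T-mDCs 56.0, 51.7 and 51.6. All T-DC samples were below every mature DC sample, but N-mDC sample 3 was only just above T-DC sample 1. The mean was 1.61 times higher in T-mDCs than in T-DCs (-0.67 ± 0.17, limma adjusted p = 0.0351). Against N-mDCs the difference was -0.31 (95% interval -0.70 to 0.08, limma adjusted p = 0.231). T-mDCs were above N-mDCs in all samples, but the difference of 0.36 did not pass (95% interval -0.03 to 0.75, limma adjusted p = 0.333). The call against T-mDCs was lost without any 1 of the T-mDC samples, N-mDC sample 1, T-DC sample 2 or T-DC sample 3, at limma adjusted p of 0.0596 to 0.134, with differences of -0.63 to -0.69.

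Rgs12 and Rgs14 are larger R12 proteins that also carry a GoLoco motif, which holds Gαi in its GDP form, and domains that bind Ras proteins. The FPKM of Rgs12 was 17.1, 13.6 and 12.4 in N-mDCs, 1.48, 14.1 and 20.9 in T-DCs and 8.03, 14.5 and 14.4 in T-mDCs. T-DC sample 1 was the lowest of the 9 samples and T-DC sample 3 the highest. For Rgs14 the order was the opposite, with 19.0, 11.4 and 7.19 FPKM in T-DCs, where N-mDCs had 9.66, 14.3 and 13.0 and T-mDCs had 11.1, 9.36 and 10.6. Neither passed the test against N-mDCs, with differences of -0.70 (95% interval -2.30 to 0.89) for Rgs12 and -0.05 (-0.75 to 0.65) for Rgs14. Rgs19, an RZ protein that acts on Gαi and is also called GAIP, had 45.0, 45.9 and 36.2 FPKM in N-mDCs, 67.9, 40.0 and 24.7 in T-DCs and 47.2, 47.1 and 47.2 in T-mDCs. Its T-DC samples again lay on both sides of the mature DCs, with a difference from N-mDCs of -0.05 (95% interval -0.77 to 0.68, limma adjusted p = 0.934). The intervals of Rgs12, Rgs14 and Rgs19 are too wide to show that their levels were alike in the groups.

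**Figure D2:**
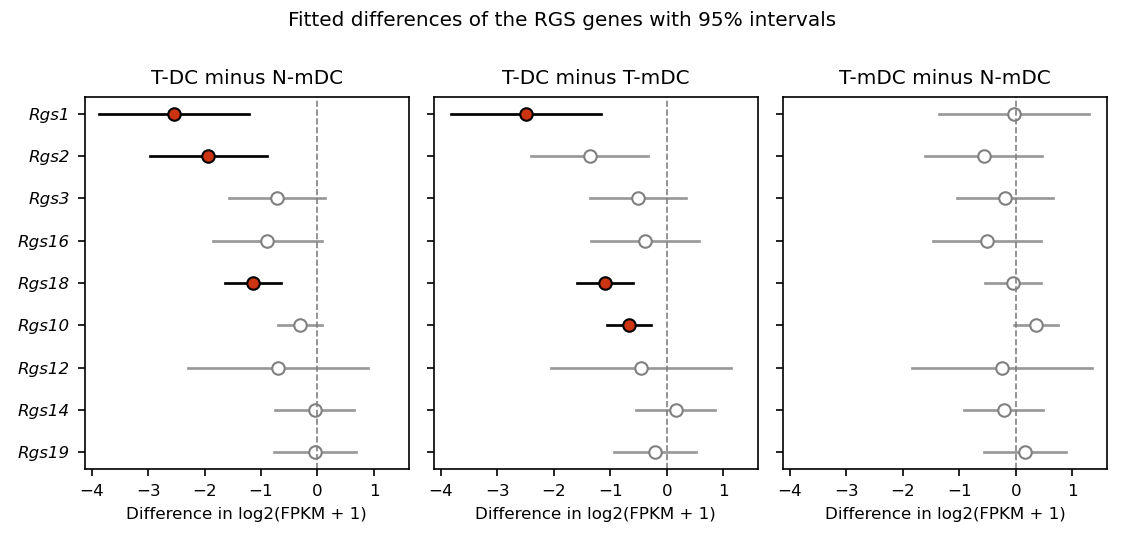
Fitted differences in log2(FPKM + 1) of the 9 RGS genes (points) with 95% intervals (lines) in the 3 comparisons, with filled points for genes called by limma (adjusted p under 0.05). Filled points are Rgs1, Rgs2 and Rgs18 against N-mDCs and Rgs1, Rgs18 and Rgs10 against T-mDCs, and there are none between T-mDCs and N-mDCs.

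Over the 9 genes, the estimate was below 0 for 9 genes against N-mDCs, 8 against T-mDCs and 7 between T-mDCs and N-mDCs. Of all tested genes, 46.6%, 44.6% and 47.3% had an estimate below 0. The median difference was -0.71, -0.52 and -0.20 in these comparisons, beside 0.05, 0.07 and 0.03 over all tested genes. For 4 of the 9 genes (Rgs1, Rgs2, Rgs10 and Rgs18) every T-DC sample was below every N-mDC sample, as for 16.4% of all tested genes. For 3 of the 9 (Rgs1, Rgs10 and Rgs18) every T-DC sample was below every T-mDC sample, as for 18.1% of all tested genes. By the limma F-test over the 3 groups, Rgs1, Rgs2 and Rgs18 were called, which is 3 of 9 genes beside 18.0% of all tested genes, and Rgs10 had an adjusted p of 0.0611. Between T-mDCs and N-mDCs, limma called 0 of the 9 genes, with 0 at an unadjusted p under 0.05 and 0 by voom on whole reads, and it called 2.21% of all tested genes in either direction. The 95% interval of Rgs1 in that comparison was wide (-1.37 to 1.29). With T-DC sample 1 left out, 4 genes were called against N-mDCs and 5 against T-mDCs, beside 39.5% and 35.1% of all tested genes. Without T-DC sample 2 the counts were 1 and 0, with 4 and 3 of the 9 at an unadjusted p under 0.05, beside 7.99% and 6.47% of all tested genes called. Without T-DC sample 3 they were 2 and 2, beside 9.0% and 8.43%.

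The genes also differed in how much of the RGS signal they carried. Rgs1 and Rgs2 together made up 79.0 to 82.6% of the summed FPKM of the 9 genes in N-mDCs, 69.3 to 80.6% in T-mDCs and 66.7, 52.2 and 40.5% in T-DC samples 1 to 3. The sum itself was 683 to 833 FPKM in N-mDCs, 457 to 766 in T-mDCs and 423, 232 and 161 in T-DC samples 1 to 3. In N-mDCs the order of mean FPKM was Rgs2, Rgs1, Rgs19, Rgs10, Rgs12, Rgs18, Rgs3, Rgs14 and Rgs16, and the samples of Rgs2 and Rgs1, of Rgs19 and Rgs10, and of the 4 genes from Rgs12 to Rgs14 overlapped. In T-DCs the mean of Rgs18 came after those of Rgs14, Rgs12 and Rgs3. In T-mDCs all samples of Rgs10 were above all samples of Rgs19, whereas these overlapped in N-mDCs and T-DCs. FPKM divides by the exon length of all annotated transcripts together, and this favors some genes over others. The table's length is 1.81 times that of the longest coding transcript for Rgs1, 2.3 times for Rgs3 and 1.94 times for Rgs10, but 1.0 for Rgs16 and Rgs18. Levels of different genes are therefore rough, while comparisons of 1 gene between samples do not depend on its length.

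Rgs1, Rgs2 and Rgs18, the 3 genes called by the F-test, lie in 1 stretch of chromosome 1. In build GRCm38, Rgs2 is at chr1:143999338-144004161, Rgs1 at chr1:144242296-144249242 and Rgs18 at chr1:144752683-144775435, all on the minus strand and each with 5 exons in its longest coding transcript. The stretch spans 776 kb, with 238 kb between Rgs2 and Rgs1 and 503 kb between Rgs1 and Rgs18. Rgs13 and Rgs21 lie between them and were not tested, with at most 0.266 FPKM for Rgs13 and 0 reads for Rgs21 in all samples. Of the 21 annotated genes in the stretch and 500 kb to each side, 6 were tested. The other tested genes, Cdc73, Glrx2 and Uchl5, lie beyond Rgs2. They differed from N-mDCs by 0.22 ± 0.20, 0.22 ± 0.15 and 0.52 ± 0.21 and from T-mDCs by 0.004 ± 0.199, 0.47 ± 0.15 and 0.40 ± 0.21, none of them called. Rgs16, also on chromosome 1 (chr1:153740349-153745468), lies outside this stretch and was not called.

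**Figure D3:**
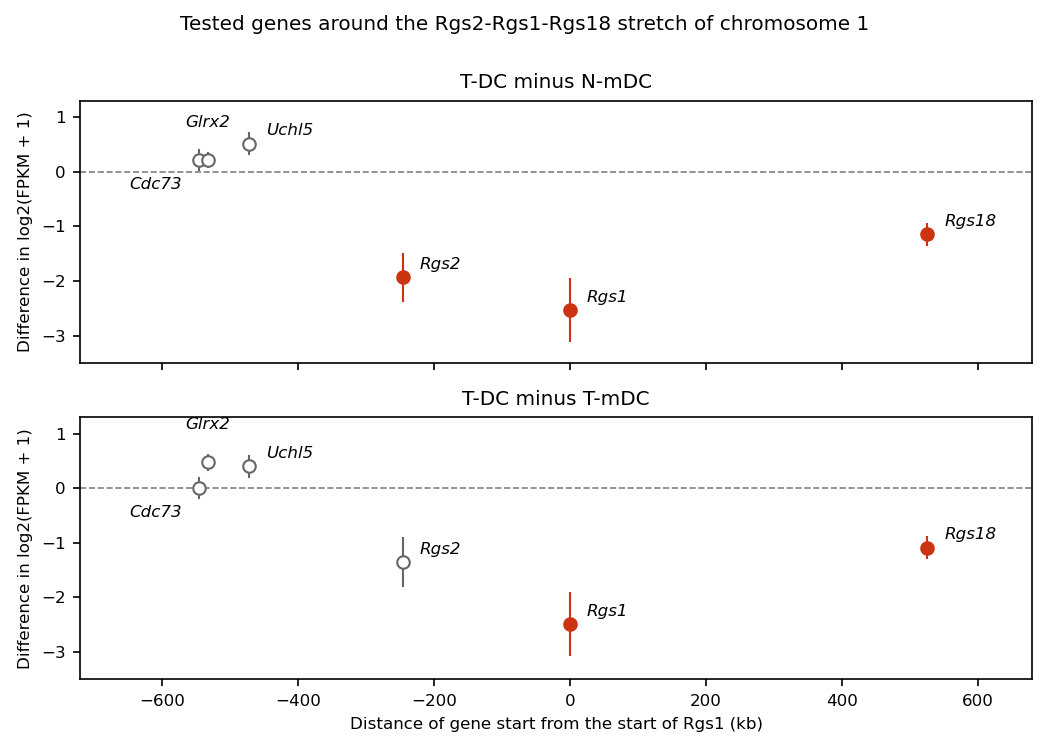
Difference in log2(FPKM + 1) between T-DCs and N-mDCs (top) or T-mDCs (bottom) for the 6 tested genes around the Rgs2, Rgs1 and Rgs18 stretch, against the distance of each gene's start from that of Rgs1 in kb, with error bars of 1 SE and filled points for called genes. The RGS genes lie between -1.09 and -2.53, whereas Cdc73, Glrx2 and Uchl5 lie between 0.004 and 0.52.

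Values of the 9 genes varied together to different degrees over the 9 samples, which come from 3 groups and share their libraries. Pearson's r of log2(FPKM + 1) was 0.941 for Rgs1 and Rgs2, 0.893 for Rgs2 and Rgs3, and 0.815 for Rgs1 and Rgs18. It was -0.812 for Rgs12 and Rgs14 and -0.75 for Rgs12 and Rgs19, for which T-DC sample 1 is at the far end. Among all other tested genes, those most alike to Rgs1 were Pld2, Mtmr14 and H2-K2 (r of 0.991 to 0.992), those most alike to Rgs2 were Ier5, Ppfia4 and Aph1c (0.986 to 0.991) and those most alike to Rgs18 were Ksr1, Ptpn3 and Fbrsl1 (0.983 to 0.984). Rgs10 was most like Nmnat1, Proser2 and Gm12034 (0.940 to 0.959) and Rgs3 most like Zfp277, Dennd4b and Tifab (0.979 to 0.987). For Rgs12 they were Hnrnpa1, Hnrnpc and Cep57l1 (0.953 to 0.964), for Rgs14 Tmem106a, D830050J10Rik and Txndc12 (0.951 to 0.965), and for Rgs19 Capzb, Irak4 and Sash3 (0.966 to 0.975).

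Of 13 other RGS genes, only Rgs11 was tested. Rgs11, an R7 protein better known from the retina, had 1.25, 1.61 and 0.943 FPKM in N-mDCs, 0.518, 0.261 and 0.219 in T-DCs and 0.932, 1.27 and 1.28 in T-mDCs. T-DCs were called lower in both comparisons, at differences of -0.76 ± 0.18 (against N-mDCs) and then -0.70 ± 0.18 (limma adjusted p = 0.0256 and 0.0372), on 14 to 109 reads per sample. The first call was lost without N-mDC sample 1 or 2 or T-DC sample 2 or 3, and the second without N-mDC sample 1, T-DC sample 2 or 3, or T-mDC sample 2 or 3. The other 12 had at most 0.266 FPKM in any sample, and Rgs17, Rgs21 and Rgs22 had 0 reads in all samples. Of 8 further genes with RGS-like domains, 7 were tested. Against N-mDCs none was called, and against T-mDCs Arhgef12, which acts downstream of Gα12 and Gα13, was called higher in T-DCs (10.4 ± 7.07 against 1.08 ± 0.42 FPKM, limma adjusted p = 0.0326). T-DC samples 1 to 3 had 2.28, 15.4 and 13.4 FPKM, so Arhgef12 was highest in the samples with the hemoglobin reads, and with the erythroid covariate the difference was 0.47 (limma adjusted p = 0.777). The call was also lost without T-DC sample 2 or 3, T-mDC sample 2 or 3, or any 1 of the N-mDC samples.

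Genes on which RGS proteins act were counted in the same fits. Of 16 Gα genes 9 were tested, and Gnaq, the Gαq that Rgs1, Rgs2 and Rgs18 act on, was the only call in either comparison. A count of 1 in 9 is near the share of all tested genes called lower. Its FPKM was 14.6, 9.51 and 14.4 in N-mDCs, 6.82, 3.87 and 2.21 in T-DCs and 9.96, 12.9 and 12.6 in T-mDCs. All T-DC samples were below all mature DC samples (-1.46 ± 0.32 and -1.36 ± 0.32, limma adjusted p = 0.0186 and 0.026). Gnaq was lowest in T-DC samples 2 and 3, which held the hemoglobin reads. With the erythroid covariate Gnaq differed by -0.745 and -0.273 (limma adjusted p = 0.129 and 0.732). The call against N-mDCs was lost without N-mDC sample 1 or 3 or T-DC sample 2, and that against T-mDCs without T-DC sample 2 or 3 or T-mDC sample 2 or 3. Of 17 Gβ and Gγ genes 9 were tested, with 0 higher and 1 lower against N-mDCs (Gng2) and 2 higher and 2 lower against T-mDCs, where 5.44% of all tested genes were called higher and 8.79% lower. The last were Gngt2 (123 ± 66.4 FPKM in T-DCs against 34.0 ± 21.8) and Gng11 (2.51 ± 0.42 against 0.270 ± 0.272), which were higher in T-DCs, and Gnb4 (0.628 ± 0.227 against 9.33 ± 2.81) and Gng2 (6.71 ± 4.04 against 18.6 ± 0.449), which were lower. Of 17 effector genes 11 were tested, with 0 called higher and 2 lower in T-DCs in each comparison. These were the adenylyl cyclase gene Adcy4 in both (0.267 ± 0.165 FPKM against 1.57 ± 0.148 and 1.33 ± 0.167), the phospholipase Cβ gene Plcb2 against N-mDCs (9.89 ± 4.80 against 30.7 ± 1.74) and Plcb4 against T-mDCs (0.560 ± 0.253 against 3.54 ± 0.388). With 1 sample left out at a time, Gnb4, Plcb2 and Plcb4 and the Adcy4 call against N-mDCs held in every fit. The Gng2 call against N-mDCs was lost without any 1 of the mature DC samples, T-DC sample 2 or T-DC sample 3. Gng2 and Gng11 against T-mDCs were lost without T-DC sample 2 or 3 or T-mDC sample 2 or 3, and Gng11 also without N-mDC sample 2. Gngt2 was lost without any 1 of the N-mDC samples, T-DC sample 2 or T-mDC sample 2 or 3, and Adcy4 against T-mDCs without T-mDC sample 2 or 3. With the erythroid covariate all of these calls were lost. Against N-mDCs, Gng2 then differed by -0.385, Adcy4 by -0.884 and Plcb2 by -1.013 (limma adjusted p = 0.387, 0.0631 and 0.102). Against T-mDCs, Gnb4 differed by -2.386, Gng2 by -0.313, Adcy4 by -0.668 and Plcb4 by -1.084 (0.176, 0.679, 0.355 and 0.196). Gng11 differed by 1.175 and Gngt2 by 2.088 (0.474 and 0.367).

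Receptor kinases and arrestins, which end receptor signaling by another route, were called only in the higher direction. Of 8 such genes 6 were tested, with 1 higher and 0 lower against N-mDCs and 2 higher and 0 lower against T-mDCs, where 6.1% and 5.44% of all tested genes were called higher. Arrb1, which encodes β-arrestin 1, had 7.98, 8.92 and 8.64 FPKM in N-mDCs, 26.1, 81.1 and 67.6 in T-DCs and 10.4, 7.0 and 7.28 in T-mDCs. It was called in both comparisons (2.49 ± 0.38 and 2.55 ± 0.38, limma adjusted p = 0.00446 and 0.00438), and its levels were highest in T-DC samples 2 and 3, which held the hemoglobin reads. Grk6, a kinase of many G protein-coupled receptors, was called against T-mDCs (79.6 ± 18.2 against 36.7 ± 10.8 FPKM). Of 6 GoLoco and Gα chaperone genes 5 were tested, with Gpsm1 called lower and Gpsm2 higher in both comparisons. Of all tested genes, 10.3% were called lower against N-mDCs and 8.79% against T-mDCs. Gpsm2, which binds GDP-bound Gαi and takes part in orienting the spindle, had 2.93, 34.9 and 44.4 FPKM in T-DC samples 1 to 3 and at most 2.48 in any mature DC sample, so it too was highest where hemoglobin was. The Gpsm2 calls were lost without T-DC sample 2 or 3, T-mDC sample 2 or 3, or any 1 of the N-mDC samples, and that against T-mDCs also without T-mDC sample 1. The Grk6 call was lost without T-DC sample 2 or T-mDC sample 2 or 3, and the Gpsm1 call against T-mDCs without T-mDC sample 2 or 3, while Arrb1 was called in every fit without 1 sample. With the erythroid covariate Arrb1 differed by 1.63 and 1.24 (limma adjusted p = 0.024 and 0.258), and Gpsm2 by 1.15 and -0.25 (0.173 and 0.874).

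Of 30 chemoattractant receptors, whose signals RGS proteins limit, 24 were tested. Against N-mDCs 1 was called higher and 12 lower, and against T-mDCs 6 higher and 8 lower. Of all tested genes, 6.1% were called higher and 10.3% lower against N-mDCs, and 5.44% higher and 8.79% lower against T-mDCs. The median difference over the tested receptors was -1.10 in the first and -0.05 in the second, where all tested genes had 0.05 and 0.07. Ccr7, which guides mature DCs to lymph nodes, had 867, 295 and 576 FPKM in N-mDCs, 539, 899 and 923 in T-mDCs and 9.54, 24.6 and 1.60 in T-DCs (-5.90 ± 0.76 and -6.43 ± 0.76, limma adjusted p = 0.0022 and 0.00197). Gpr183, an oxysterol receptor that positions DCs in the spleen, was also lower in both comparisons (2.58 ± 0.973 FPKM against 37.0 ± 5.88 and 31.7 ± 7.28). Xcr1, the chemokine receptor of cDC1 and itself one of the DC markers above, was lower in both (3.26 ± 3.11 against 14.4 ± 3.96 and 50.8 ± 22.0). C5ar1, a receptor of complement C5a found on neutrophils and monocytes, was called higher than in T-mDCs (21.6 ± 8.02 against 2.52 ± 3.78), with 30.3, 20.2 and 14.4 FPKM in T-DC samples 1 to 3. Of 10 neutrophil markers, 0 were called against N-mDCs and 1, Retnlg, was called higher than in T-mDCs, and their summed FPKM was 13.5, 4370 and 1540 in T-DC samples 1 to 3, 64.1 to 710 in N-mDCs and 5.08 to 15.9 in T-mDCs. Of 12 monocyte and macrophage markers, 2 (Fcgr1 and Ccr2) were called lower than in N-mDCs and 0 against T-mDCs. Their median difference was -0.86 from N-mDCs and 0.89 from T-mDCs. Their summed FPKM was 3660, 1420 and 902 in T-DC samples 1 to 3, 1820 to 3770 in N-mDCs and 594 to 1610 in T-mDCs. Among T-DC samples, sample 1 had the highest C5ar1, the lowest neutrophil sum and the highest monocyte and macrophage sum. The part of neutrophils, monocytes and macrophages in the C5ar1 values was not tested. Without 1 sample at a time, Ccr7 and Gpr183 were called in every fit. The Xcr1 call against N-mDCs was lost without T-DC sample 2 or 3 or any N-mDC sample, and the C5ar1 call without T-DC sample 2 or T-mDC sample 2 or 3. With the erythroid covariate Ccr7, Gpr183 and Xcr1 differed from N-mDCs by -5.18, -3.35 and -0.88 (limma adjusted p = 0.0319, 0.00868 and 0.25). From T-mDCs they differed by -5.34, -3.07 and -1.93 (limma adjusted p = 0.204, 0.122 and 0.234), and C5ar1 by 2.93 (0.362). That fit called 0 of all tested genes against T-mDCs.

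**Figure D4:**
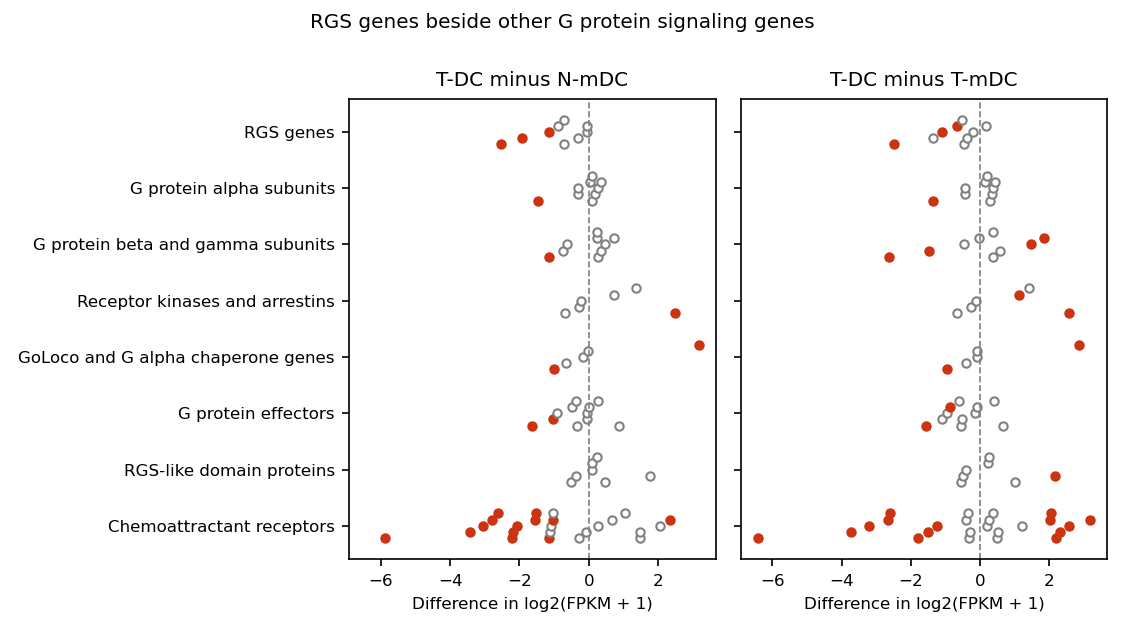
Difference in log2(FPKM + 1) between T-DCs and N-mDCs (left) or T-mDCs (right) for the tested genes of each G protein signaling list, 1 point per gene, with filled points for genes called by limma (adjusted p under 0.05). Called genes of the RGS and effector lists are all lower in T-DCs, those of receptor kinases and arrestins are all higher, and the chemoattractant receptors reach from -6.43 to 3.17.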

How the data were processed

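Bulk RNA-seq of 9 sorted DC samples was analysed, in 3 groups taken from their labels. The authors deposited FPKM for 54532 genes. The submitters' processing notes name mm10, and the aligner, counter and annotation are not given in the sources used here. The product of FPKM, gene length and a size per sample was a whole number of reads, to within 2.68e-05 of a read. The intervals cover the fit only, and the depth per sample is given with the results.

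The deposited FPKM were tested as log2(FPKM + 1) in R 4.3.3 by limma 3.58.1, two-sided, with a linear model and moderated variances that follow a trend. The 12746 genes that reached an FPKM of 1 in 3 or more samples were tested, with all 9 samples in 1 fit and Benjamini-Hochberg adjustment. Voom was run on the recovered reads as an alternative. Every RGS gene was named, and from each list the called genes with the largest differences, at most 4. The genes most alike are the 3 with the highest r. Annotation came from GENCODE M21. The RGS genes and all lists were chosen with earlier results of these data known. The procedure was tested on simulated data. Alternatives were the pseudocount, filters, scalings, weights, trend, a fold threshold, only the groups compared, a replicate block, an erythroid covariate, an average of the 2 most alike T-mDC samples, leaving out each sample and, added after the data were seen, leaving out T-DC samples 2 and 3 together. Figures were drawn with matplotlib 3.10.9.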

Additional observations from a re-analysis of the deposited data

How the results depend on the processing

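Calls of the RGS genes depended on single samples and on the spread they set. Leaving out 1 sample at a time gave 1 to 4 called genes against N-mDCs, 0 to 5 against T-mDCs and 0 to 5 by the F-test, where all samples gave 3, 3 and 3, and no call between T-mDCs and N-mDCs. The same fits called 7.69 to 39.5%, 4.24 to 35.1% and 8.39 to 42.2% of all tested genes. With T-DC sample 1 as the only T-DC sample, an alternative added after the data were seen, 1 was called against N-mDCs, 1 against T-mDCs and 1 by the F-test. Without a filter, 1 RGS gene was called against N-mDCs, 2 against T-mDCs and 1 by the F-test, beside 5.16%, 4.43% and 5.86% of all genes in that fit. With only the groups compared, 1 was called against N-mDCs and 2 against T-mDCs, beside 8.39% and 8.13% of all tested genes. With array weights, whose estimation stopped before it converged, 5, 6 and 1 genes were called against N-mDCs, against T-mDCs and between T-mDCs and N-mDCs, and 6 by the F-test. The same fit called 66.6%, 77.9%, 30.1% and 86% of all tested genes. With T-mDC samples 2 and 3 averaged, 0 were called against T-mDCs and 1 by the F-test, beside 4.24% and 8.44% of all tested genes. With an erythroid covariate, which is highest in T-DC samples 2 and 3 and so shares part of the T-DC difference, 0 were called against N-mDCs, 0 against T-mDCs and 0 by the F-test. The differences were -1.51 and -0.94 for Rgs1, and -1.04 and -0.92 for Rgs18. The same fit called 577 of all tested genes against N-mDCs and 0 against T-mDCs, in place of 2096 and 1813. Deviations of same-numbered samples from their group means correlated at r of -0.475 to 0.269 between groups. The labels do not say whether equal numbers mark paired samples, and with 3 samples a group these values cannot decide it. With the replicate block, 2 RGS genes remained called against N-mDCs, 1 against T-mDCs and 1 by the F-test. Of all tested genes, 1378 were then called against N-mDCs, 1253 against T-mDCs, 78 between T-mDCs and N-mDCs and 1337 by the F-test.

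Of all tested genes, array weights called 8485 against N-mDCs and 9923 against T-mDCs, and leaving out T-DC sample 1 called 5030 and 4475. Averaging T-mDC samples 2 and 3 gave 1394 and 540, the groups compared alone 1070 and 1036, and the FPKM minimum of 5 gave 1190 against T-mDCs. Rescaling to TPM moved the median of all genes from 0.07 to -0.23 against T-mDCs, where 78.1% of calls were lower in place of 61.8%, and from 0.03 to 0.23 between T-mDCs and N-mDCs, where 50.5% were lower in place of 68.8%. Rgs16 was not tested with the FPKM minimum of 5.

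Values that changed sign were of genes that were not called in that comparison, except Gpsm2 against T-mDCs (-0.25 with the erythroid covariate). Under TPM they were Rgs14 (-0.15) and Cdc73 (-0.29) against T-mDCs, and Rgs1 (0.18), Rgs3 (0.004) and Rgs18 (0.15) between T-mDCs and N-mDCs. Under quantile normalization they were Rgs1 between the mature DCs (0.21) and Cdc73 against T-mDCs (-0.002), which also had -0.002 under median-of-ratios scaling. Under array weights they were Rgs14 (0.034) and Rgs16 (0.082) against N-mDCs, Rgs12 (0.019) and Rgs16 (0.39) against T-mDCs, and Rgs1 (0.27) and Rgs18 (0.04) between the mature DCs. With the erythroid covariate they were Rgs3 (0.13), Rgs14 (0.29) and Rgs19 (0.47) against N-mDCs, Rgs3 (0.76), Rgs19 (0.59) and Uchl5 (-0.21) against T-mDCs, and Rgs12 (0.41) and Rgs19 (-0.11) between the mature DCs. With T-DC sample 1 as the only T-DC sample they were Rgs3 (0.19), Rgs14 (0.61) and Rgs19 (0.68) against N-mDCs, and Rgs3 (0.38), Rgs19 (0.52), Cdc73 (-0.17) and Uchl5 (-0.007) against T-mDCs. Without 1 sample, Rgs12 ranged from -1.32 to 0.26, Rgs14 from -0.38 to 0.26 and Rgs19 from -0.41 to 0.30 against N-mDCs. Against T-mDCs, Rgs12 ranged from -1.07 to 0.50, Rgs14 from -0.17 to 0.48, Rgs19 from -0.57 to 0.14 and Cdc73 from -0.055 to 0.09. Between the mature DCs, Rgs1 ranged from -0.22 to 0.30, Rgs12 from -0.37 to 0.016 and Rgs18 from -0.21 to 0.15. The cause of these changes was not tested.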
